A study of Mus musculus with 2 samples.

Results

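Glycolysis and hypoxia response genes were followed in the brain of mouse embryos, as 32 genes chosen by name: glycolytic enzymes, glucose transporters and genes that low oxygen is known to induce. Of these, 30 had at least 1 probe set annotated to their symbol alone, 72 probe sets in all, out of 18194 named genes and 45101 probe sets on the array. Eno1 and Gpi1, a pair of glycolytic enzyme genes, were not analysed here. For each gene the probe set whose signal, averaged over both arrays, was highest stood for the gene, and the enzymes were read separately from the genes that belong to the hypoxia response alone.

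The study set brain RNA of a KO embryo sample against that of a WT sample, both of strain C57BL/6 and at stage E10.5, on 1 Affymetrix array each. KO is knockout and WT wild type. The targeted gene, the number and sex of the embryos, and whether embryos were pooled are not stated in the labels. Xist read 2022 in KO and 5.19 in WT, and the Y-linked Eif2s3y 0.27 and 254. Sex-linked transcripts thus differed along with genotype, and in every difference below sex and genotype cannot be told apart. With 1 array per group there is no replicate error, no test and no p-value, and every difference is between these 2 arrays. All differences are KO minus WT on the scale of log2(signal + 16), where signal is the deposited linear intensity, and the added 16 shrinks the differences of dim probe sets.

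Glycolysis splits glucose into pyruvate and yields ATP without oxygen, and lactate dehydrogenase turns the pyruvate into lactate when oxygen is short. The transcription factors HIF1 and HIF2 link this pathway to oxygen. In well oxygenated cells prolyl hydroxylases mark their alpha subunits for destruction, and in hypoxia the stabilised subunits bind a short DNA core next to genes of glucose uptake, glycolysis, vessel growth and mitochondrial turnover. The midgestation neural tube, in which vessels are only beginning to enter, relies strongly on glycolysis.

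The hypoxia response core has the letters ACGTG or GCGTG, and it was looked for on both strands of the 250 bases before each gene start in RefSeq's promoter table (GRCm38.p6). Overlapping matches were joined, and CACGTG, which holds ACGTG on both strands, is also the E-box of other factors. The table held 44 promoters of 29 of the 32 genes and none of Epas1, Ndrg1 and Slc2a3. The core was found before at least 1 start of 26 of the 29 genes (89.7%), against 53.6% of 14453 genes of the array with a promoter in the table. By promoter the share was 77.3%, against 48.9% of the promoters of genes on the array, 38.6% of all 32851 promoters, and 56.8% of 7569 promoters of array genes with a CG count in the middle range of the members. The members were chosen as hypoxia and glycolysis genes, so these shares describe the choice and are not independent of it. A match is a run of letters and was not shown here to be bound.

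Promoters are printed for 5 members. Adm, Egln3 and Pdk1 are the 3 members with the largest differences. Ldha is shown as an enzyme gene with several matches, and Mif as a hypoxia-induced gene with none. Each is the 250 bases before a gene start, 5′ to 3′ on the strand of the gene, with matches to the core on either strand in capitals. They lie at chr7:110627407-110627656 (Adm, plus strand), chr12:54203875-54204124 (Egln3, minus strand), chr2:71872974-71873223 (Pdk1, plus strand), chr7:46845554-46845803 (Ldha, plus strand) and chr10:75860278-75860527 (Mif, minus strand).
Adm: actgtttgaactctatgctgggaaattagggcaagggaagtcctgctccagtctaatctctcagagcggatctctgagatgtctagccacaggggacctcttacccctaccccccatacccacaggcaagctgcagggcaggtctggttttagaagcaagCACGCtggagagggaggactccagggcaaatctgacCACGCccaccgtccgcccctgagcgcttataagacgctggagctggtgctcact
Egln3: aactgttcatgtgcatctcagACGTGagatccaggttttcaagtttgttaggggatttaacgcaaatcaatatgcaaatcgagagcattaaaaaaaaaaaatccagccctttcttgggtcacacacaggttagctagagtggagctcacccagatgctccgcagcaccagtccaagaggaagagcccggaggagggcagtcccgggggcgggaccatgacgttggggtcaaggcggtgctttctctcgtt
Pdk1: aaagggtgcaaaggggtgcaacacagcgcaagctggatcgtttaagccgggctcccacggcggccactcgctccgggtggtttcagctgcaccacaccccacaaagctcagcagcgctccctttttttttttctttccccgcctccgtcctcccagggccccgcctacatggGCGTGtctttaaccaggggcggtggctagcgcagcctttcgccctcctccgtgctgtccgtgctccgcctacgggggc
Ldha: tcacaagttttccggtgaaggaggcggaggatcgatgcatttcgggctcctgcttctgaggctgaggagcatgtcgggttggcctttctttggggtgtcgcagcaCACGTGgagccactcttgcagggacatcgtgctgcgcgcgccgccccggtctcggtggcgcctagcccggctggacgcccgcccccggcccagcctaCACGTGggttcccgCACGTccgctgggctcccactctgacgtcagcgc
Mif: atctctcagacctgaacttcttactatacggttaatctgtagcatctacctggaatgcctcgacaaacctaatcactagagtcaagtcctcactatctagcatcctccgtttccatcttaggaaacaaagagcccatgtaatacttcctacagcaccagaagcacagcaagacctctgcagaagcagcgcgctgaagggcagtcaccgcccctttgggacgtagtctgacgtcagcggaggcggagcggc
Adm, whose difference was the largest, had 2 matches at 90 and 54 bases before the start, and Egln3 had 1 far from the start at 229 bases. Pdk1 had 1 match at 78 bases, and its second listed start had none. Ldha had 3 matches, 2 of them CACGTG, yet its signal was slightly lower in KO, as was that of Mif with none.

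As a whole the genes hardly differed between the arrays. Of the 30, 15 were higher and 15 lower in KO, beside 50.3% of all named genes higher in KO, and their median difference was 0.0021, beside one of 0.0011 over all named genes. In 25 of the 30 (83.3%) the difference was no larger than 0.2 log2 units, which held for 74.2% of all named genes. A gene is said here to be 25% apart where the higher array, on the scale with the added 16, is above the lower by 25% or more. Only Adm and Egln3 were 25% apart, both higher in KO, beside 10.3% of all named genes. A total of 27 passed the level filter, a mean signal of both arrays at or above the median of 41.8 over all named genes, and Adm, Aldoc and Car9 did not. Within 0.2 log2 units were 23 of those 27 (85.2%), close to the 82.2% of all named genes that passed. Of the 27, only Egln3 was 25% apart, beside 6.2% of the 9097 genes that passed, or 3.79% counting those higher in KO. Egln3 passed the filter through its KO signal, as its WT signal of 39.8 was below it. None of the 27 was 1.5-fold or 2-fold apart, where 1.11% and 0.242% of the genes that passed were.

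**Figure D1:**
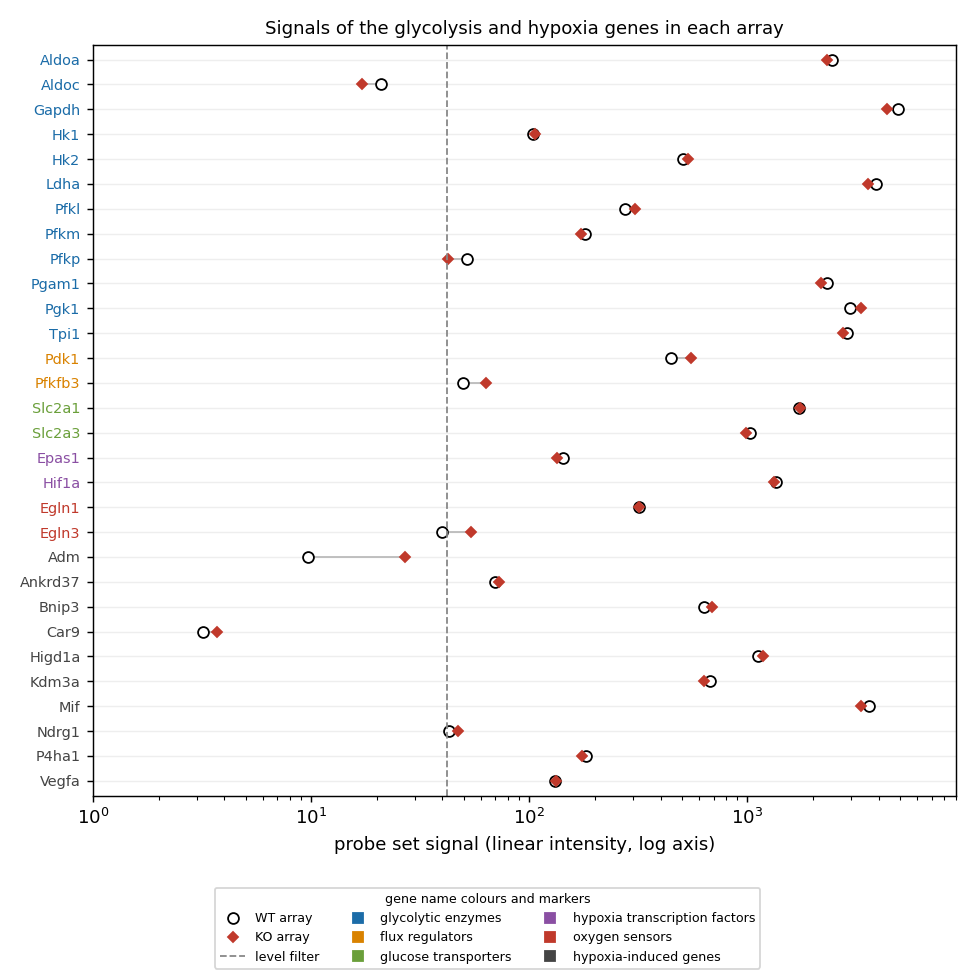
Signal of each of the 30 genes in the KO array (red diamonds) and the WT array (open circles), on a logarithmic axis of linear intensity, with gene names coloured by role and the level filter of 41.8 as a dashed line. The symbols overlap or lie close for most genes, and the widest gap is that of Adm, at 27.0 in KO and 9.64 in WT, below the filter.

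Among the enzymes of the glycolytic chain, 8 of the 12 measured were lower in KO. Their median difference was -0.077, with a range of -0.21 to 0.17. Of the 6 enzymes with a mean signal of 1000 or more, 5 were lower, beside 74% of all named genes of that brightness. None of the 12 was 25% apart, beside 10.3% of all named genes and 6.2% of those that passed the level filter. With 12 genes a count of 0 lies near those shares. The hexokinases, which trap glucose in the cell, were close to level: Hk1 read 107 in KO and 104 in WT (0.036), and Hk2, the isoform that hypoxia induces, 533 and 509 (0.064). The next controlled step is run by the phosphofructokinases, whose isoforms went both ways. Pfkl, the liver-type subunit, read 304 in KO and 276 in WT (0.13), and its other probe sets gave 0.14 and 0.19. Pfkm, the muscle-type subunit, read 172 and 179 (-0.055). Pfkp, the platelet-type subunit, had the lowest difference of all members at 42.5 and 51.8 (-0.21), and its 2 dim probe sets gave 0.011 and -0.036.

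The enzymes after the splitting of fructose bisphosphate were nearly all a little lower in KO. Aldoa, the main aldolase outside liver and mature brain, read 2308 in KO and 2450 in WT (-0.085). Its other 4 probe sets were lower too, with differences from -0.18 to -0.017. Aldoc, the aldolase of mature brain, was below the level filter at 17.0 and 20.9 (-0.16). Tpi1, which interconverts the triose phosphates, read 2730 and 2863 (-0.068), while its other probe sets gave -0.092 and 0.11. Gapdh, which makes the first high-energy phosphate and NADH, read 4369 and 4881 (-0.16), with -0.17 and -0.26 for its other probe sets. These 3 are the array's control probe sets for the 5-prime, middle and 3-prime part of its transcript. Pgam1, the next mutase, read 2179 and 2320 (-0.089), and Ldha, which makes lactate, 3584 and 3889 (-0.12).

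Pgk1, the first ATP-yielding enzyme, was the exception among these, at 3336 in KO and 2954 in WT (0.17). That value rests on 1 of its 3 probe sets, since the others, at similar signals, gave -0.079 and -0.051. Pgk1 lies on the X chromosome, and the arrays also differed in sex-linked transcripts, with Xist at 2022 in KO and 5.19 in WT and the Y-linked Eif2s3y at 0.27 and 254. Their part in the value of Pgk1 was not tested. Several of these enzymes have close processed copies in the genome, and how far their probe sets read such copies is unknown here.

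The lean towards lower values in KO was shared by bright transcripts in general. Of the 11 members with a mean signal of 1000 or more, 8 were lower in KO, beside 656 of 887 named genes of that brightness (74%). Their median difference was -0.068, against -0.058 for those genes. Spiked-in control RNAs, which come from no mouse gene, leaned the same way at that brightness. Of their 10 probe sets there, 9 were lower, with a median of -0.14. All 10 read the spikes bioD, cre and dap, so several read the same RNA. The lean of the spikes was not limited to that brightness. Over all signals the median was -0.076 for 18 probe sets of hybridisation spikes and -0.088 for 27 of poly-A spikes. After quantile normalisation 5 of the 11 members were lower and 5 higher (Mif was at 0), and after a loess on level 6 were lower and 5 higher. Ldha and Tpi1 changed direction under quantile normalisation, to 0.012 and 0.0075, while Gapdh, Aldoa and Pgam1 stayed lower at -0.0073, -0.023 and -0.021. Pgk1 stood at 0.27 under that setting.

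**Figure D2:**
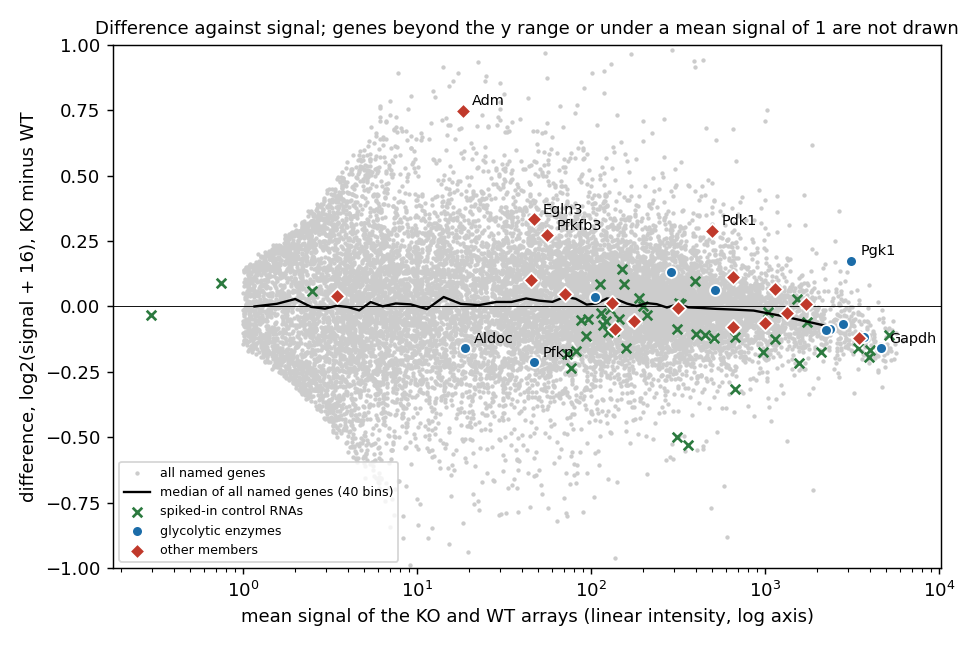
Difference of each gene (KO minus WT, log2 scale) against its mean signal, with all named genes in grey and their running median as a black line, glycolytic enzymes as blue points, the other members as red diamonds and spiked-in control RNAs as green crosses. The line bends below 0 at high signals, and most of the bright enzymes and bright spiked-in control probe sets also lie below 0. Adm, Egln3, Pfkfb3, Pdk1 and Pgk1 stand above the line.

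The regulators at the entry to glycolysis and at the exit to the mitochondrion were both higher in KO, by less than 25%. Pdk1, a kinase that shuts pyruvate dehydrogenase and so keeps pyruvate out of the mitochondrion, read 549 in KO and 447 in WT (0.29). Among the 1819 genes in the same of 10 equal bins of level, 2.91% of genes had a difference as high or higher. Such shares were computed only for Adm, Egln3, Pdk1 and Pfkfb3, the members with the highest differences. They describe genes picked by their values and are no test. Its other probe sets above the filter gave 0.16 and 0.0054, and a dim one 0.13, so all 4 were higher in KO but by unequal amounts. Pfkfb3, which makes the activator of phosphofructokinase, read 63.2 and 49.5 (0.27), where 11.2% of genes at its level reached that difference. The plain ratio of its signals was 1.28, and it passed 25% with a pseudocount of 1 or a floor of 16. Its second, dim probe set gave -0.11.

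The glucose transporters were level. Slc2a1, the carrier of barrier endothelium and red cells, read 1738 in KO and 1727 in WT (0.0088), with 0.083 and 0.050 on its other probe sets. Slc2a3, the neuronal carrier, read 984 and 1027 (-0.061), and its second bright probe set gave 0.052. The dim probe sets of Slc2a3 gave -0.20 and -0.047.

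Of the 14 genes that belong to the hypoxia response alone, 8 were higher and 6 lower in KO, with a median difference of 0.026. The transcription factor genes were not higher on the probe sets that represent them. Hif1a, the alpha subunit of HIF1, read 1327 in KO and 1350 in WT (-0.024), but its second probe set above the filter read 210 and 175 (0.24). Its dim probe sets gave 0.23 and 0.046. Epas1, the alpha subunit of HIF2 and a gene of endothelium, read 134 and 143 (-0.088), with 0.095 on a dim probe set. HIF alpha subunits are controlled chiefly as proteins, which these arrays do not measure.

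The oxygen-sensing prolyl hydroxylases differed from each other. Egln1, the main sensor in most tissues, read 318 in KO and 319 in WT (-0.0046), and -0.14 on a second probe set. Egln3, the sensor gene that is itself induced by HIF, read 54.3 and 39.8 (0.33). Its WT signal was below the level filter of 41.8, so it passed the filter only through the KO array, and 7.53% of genes at its level reached its difference. The second probe set of Egln3 was dim and level, at 10.2 and 10.1 (0.0062). On the mean of its probe sets the difference was 0.17, under 25%.

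Adm, which encodes adrenomedullin, a vessel-dilating peptide strongly induced by hypoxia, had the largest difference of all members. It read 27.0 in KO and 9.64 in WT (0.75), and its second probe set read 18.3 and 9.52 (0.43). Both probe sets were thus higher in KO, but both lay below the level filter. Of the 1819 genes in its level bin, 1.1% had a difference as high or higher, though Adm was picked here for its large difference. With a pseudocount of 64 the difference was 0.31, and with 1 it was 1.40.

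The other hypoxia-induced genes were close to level. Vegfa, the growth factor that draws vessels into hypoxic tissue, read 133 in KO and 132 in WT (0.013), and its dim probe set gave -0.18. Bnip3, a receptor for the removal of mitochondria, read 686 and 633 (0.11). Higd1a, a protein of the inner mitochondrial membrane, read 1178 and 1123 (0.068), though a second probe set above the filter gave -0.11. Ankrd37, an ankyrin-repeat gene and HIF target, read 72.7 and 69.8 (0.048). Ndrg1, a stress-induced gene, read 47.3 and 43.0 (0.10), with values from -0.64 to 0.53 on 4 dimmer probe sets.

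Some of these genes were slightly lower in KO. Kdm3a, a histone demethylase, read 634 and 671 (-0.080), and P4ha1, a subunit of collagen prolyl hydroxylase, 174 and 181 (-0.056). The dim probe set of P4ha1 gave 0.37. Mif, a cytokine, read 3321 and 3611 (-0.12), in the bright range where most transcripts were lower in KO. Car9, a carbonic anhydrase and a classic hypoxia marker, was near the bottom of the scale in both arrays at 3.72 and 3.20, and its difference of 0.038 cannot be read.

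**Figure D3:**
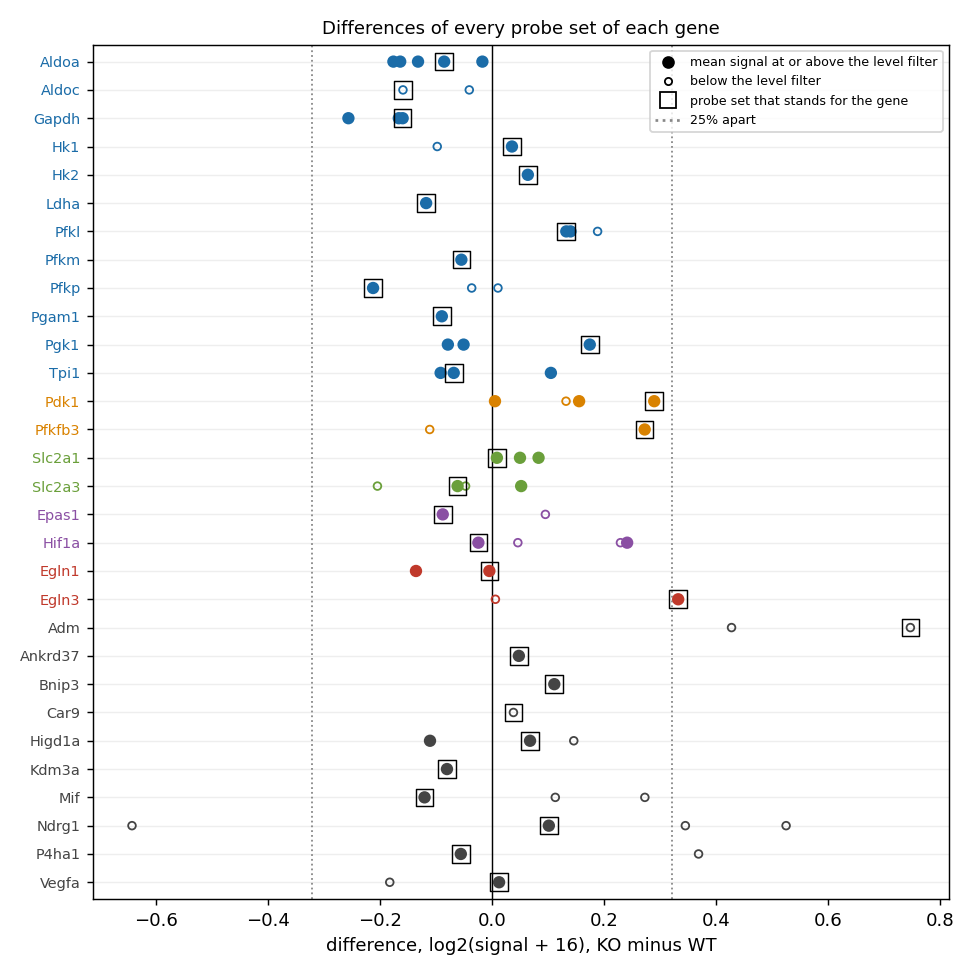
Differences of all 72 probe sets (KO minus WT, log2 scale) for each of the 30 genes, with filled points at or above the level filter, open points below it, a square around the probe set that represents the gene and dotted lines at a difference of 25%. Among the filled points only that of Egln3 passes 25%, and the widest scatter within a gene is that of the dim probe sets of Ndrg1.

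Probe sets of the same gene give a measure of how far a difference can be read, though not of how animals vary. For the 11 members that had 2 or more probe sets past the filter, the differences of probe sets of 1 gene had an SD of 0.10, against 0.16 over 3489 genes. In 6 of the 11 (54.5%) all such probe sets had the same sign, against 47.7% of those genes. The 6 were Pdk1, Pfkl and Slc2a1, higher, and Aldoa, Gapdh and Egln1, lower. In Hif1a, Pgk1, Tpi1, Higd1a and Slc2a3 the probe sets had opposite signs. The SD of 0.10 is larger than the difference of 17 of the 30 members. It rests on probe sets past the filter in 11 members only, so it was not measured for dim members. The SD of 0.16 is larger than the difference of more of the 30. RNA quality as read by the Gapdh and Actb controls was alike, with a 3-prime to 5-prime signal ratio for Gapdh of 0.856 in KO and 0.916 in WT and for Actb of 1.35 and 1.37. The spiked-in RNA dap was less even. Its 5-prime probe sets differed by -0.50 and -0.53, and its 3-prime ones by -0.22 and -0.17. The spikes lys, phe and thr had smaller gaps between these parts, in both directions.

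Other genes of the same pathways, taken from fixed lists, also differed little. Of 31 further genes of glycolysis, pyruvate and lactate, 27 were measured, 11 higher and 16 lower in KO, with a median of -0.021. Of the 18 that passed the filter 0 were 25% apart, beside 6.2% of all named genes that passed it. Of the pentose phosphate pathway, 7 of 8 genes were measured, 4 higher and 3 lower, with a median of 0.016, and of 6 passing the filter 0 were 25% apart. Of 39 further hypoxia genes, 35 were measured, 20 higher and 15 lower, with a median of 0.026. Pfkfb4 and Slc16a3 are in both the first and the last of these lists. Of the 27 further hypoxia genes that passed the filter, 1 was higher by over 25% and 0 lower. Over all named genes that passed, 3.79% were higher by that much. The 1 gene was Plod2, a lysyl hydroxylase of collagen, at 117 in KO and 72.9 in WT (0.58). Its other probe set above the filter read 47.3 and 44.3 (0.069).

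The hypoxia genes are also expressed by cells other than neural ones, and in whole tissue fewer cells of a type and less RNA per cell cannot be told apart. Neural markers, which the brain label calls for, all passed the level filter. Progenitor markers were lower in KO in 4 of 5 cases, by a median of -0.20, with summed signals of 8695 in KO and 9605 in WT, Sox2 at 1514 in KO and 1688 in WT and Fabp7 level (0.0052). Vim (3997 and 4583), Sox2 and Fabp7 are in the bright range where most transcripts were lower in KO. Pax6 (341 and 430, -0.32) and Nes (359 and 430, -0.25), with the lowest differences of the list, lay below that range. Neuron markers were lower in 3 of 4 cases, by a median of -0.23, with summed signals of 2099 and 2430, Tubb3 at 941 and 1069, Dcx lower by over 25% (-0.38) and Elavl3 higher (0.28). Endothelial markers were lower in 7 of 9 cases, by a median of -0.045, with summed signals of 713 in KO and 747 in WT. Red cell markers went both ways, 5 of 8 higher, with a median of 0.24. Of them 3 were higher by over 25%, and of those only Alas2 (0.42) passed the level filter. The 3 lower ones were the bright globins, on which the summed signals of 14174 and 15775 mostly rest. Macrophage markers were lower in 10 of 10 cases, with summed signals of 168 and 515, and C1qa was near 0 in KO at 1.0 against 30.8. Only 2 of the 10, Csf1r and C1qb, passed the level filter, and C1qb only through its WT signal (17.7 and 68.4). Head mesenchyme markers were higher in 5 of 6 cases, by a median of 0.20. Their summed signals, 1825 and 1917, were lower in KO through the bright Col3a1 alone (1397 and 1555). Pericyte markers were higher in 1 of 3 cases (218 and 208 summed), and the 3 neural crest markers measured were dim (17.0 and 14.4 summed), with Foxd3 at 1.16 and 1.91. The part of these cell types in the differences of Adm and Egln3 was not tested.

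**Figure D4:**
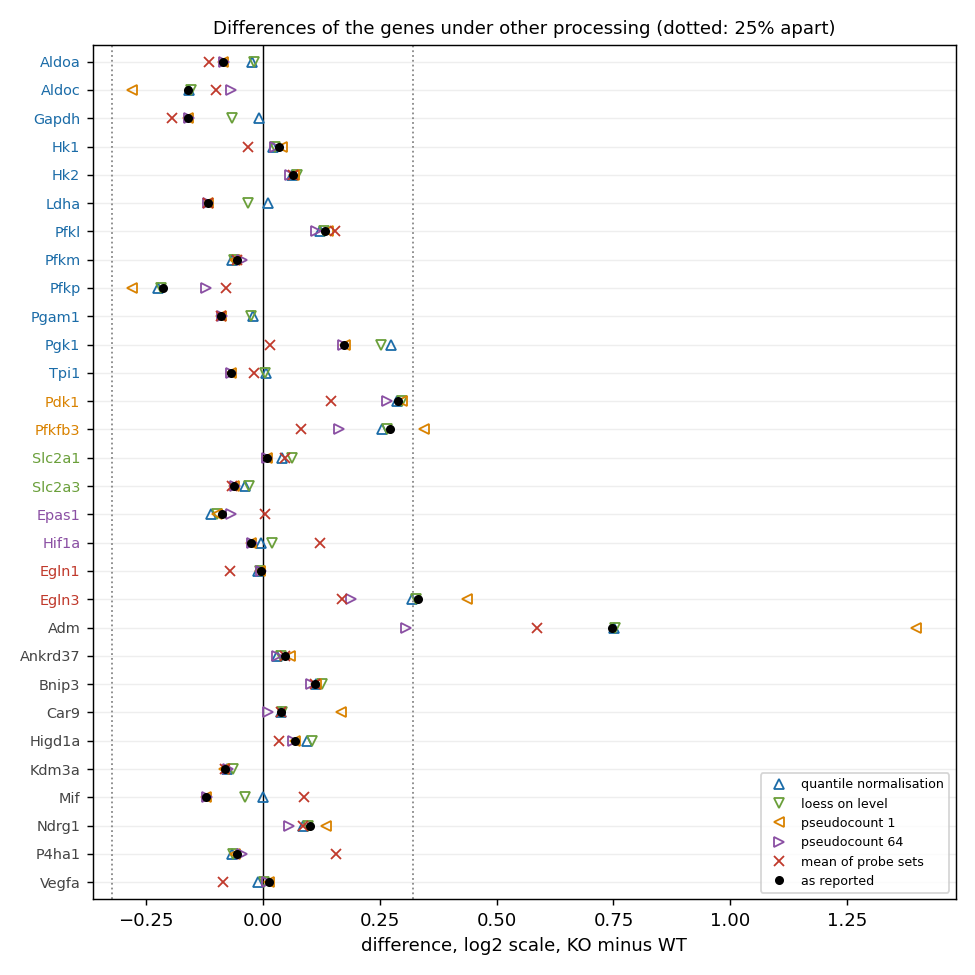
Differences of the 30 genes (KO minus WT, log2 scale) as reported (black points) and under quantile normalisation, a loess on level, pseudocounts of 1 and 64, and the mean of all probe sets of a gene, with dotted lines at a difference of 25%. Bright enzymes shift to the right under the first 2 settings, Adm spreads from 0.31 to 1.40 with the pseudocount, and most other genes stay between the dotted lines.

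Across 9 settings of scaling, pseudocount and probe set choice, 19 of the 30 genes kept their direction (8 settings for Gapdh, which has only control probe sets). Several settings could hardly turn a sign, so the count is a weak check. Another pseudocount keeps the order of both signals, and leaving out the scaling undid a ratio of only 1.001. Leaving out control probe sets touches no member but Gapdh. Genes with a single probe set, such as Hk2 and Pfkm, cannot turn with the probe set choice. The share over all named genes was not computed. The 10 that stayed higher in KO were Adm, Egln3, Pdk1, Bnip3, Ankrd37, Higd1a, Ndrg1, Pfkl, Hk2 and Slc2a1. The 9 that stayed lower were Gapdh, Aldoa, Aldoc, Pgam1, Pfkm, Pfkp, Egln1, Kdm3a and Slc2a3. Hif1a, Tpi1, Vegfa, Ldha, Hk1, Mif, Pgk1, Epas1, P4ha1, Pfkfb3 and Car9 turned or fell to 0 under at least 1 setting.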

How the data were processed

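The deposited table holds 1 column of linear intensity per array for 45101 probe sets, made with Affymetrix Expression Console per the submitters' processing notes; cRNA came from 250 ng of total RNA per the labels' protocols. The summary algorithm is not given in the sources used here. Each array's mean without the lowest and highest 2% was 100.0. Arrays were scaled to a common median (ratio 1.001) and values taken as log2(intensity + 16). Gene names came from the platform annotation: 34958 probe sets had 1 symbol, 932 several and 9211 none. The level filter used the mean of both arrays. Loess had a span of 0.3. The procedure was checked on simulated data.

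The members, lists and the threshold of 25% were chosen with earlier results of these data known. The rule for named genes took all members and, of the further pathway genes, those past 25% and the filter; other pathway genes, in the closing section, were chosen after their values were seen. No test was possible, and precision is limited by 1 array per group. Software was Python 3.11.15, numpy 2.4.6, pandas 2.3.3, statsmodels 0.14.6 and matplotlib 3.10.9.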

Additional observations from a re-analysis of the deposited data

How the results depend on the processing

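No paired analysis was possible because KO and WT have a single array each, and for the same reason no replicate could be left out. The median difference of all members was -0.053 when each gene took its median probe set, a choice that takes the lower of the middle values, and lay between -0.0046 and 0.025 under the other alternatives. The median of the enzymes was 0.00011 after quantile normalisation and -0.022 after the loess, since both take out the lean of bright probe sets. That of the hypoxia-only genes stayed between 0.0040 and 0.067 under every alternative. The count of members 25% apart was 1 after quantile normalisation, with the mean or the median of probe sets, and among members passing either level filter. It was 0 with a pseudocount of 64 and 3 with a pseudocount of 1 or a floor of 16, where Pfkfb3 joined. At 1.5-fold the count was 1 (Adm, below the filter) and at 2-fold 0, beside 1.11% and 0.242% of the genes that passed the filter. Under the other scalings, pseudocounts and probe set choices the share of all named genes 25% apart was not computed. A smaller pseudocount widens the differences of dim genes in general, so these counts cannot be read as a result about the members. The count of members higher in KO lay between 13 and 17 under every alternative. All genes passing the filter had a median of -0.026 where each took its median probe set, of -0.0027 after quantile normalisation and of 0.0054 after the loess. Signals under the filter, those of Adm, Aldoc and Car9 included, limit what can be read from them.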

Other observations

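Some genes of the further hypoxia list, picked after their values were seen, differed by over 0.2 in one direction or the other. Plod1, a lysyl hydroxylase of collagen, read 49.2 in KO and 39.4 in WT (0.23), passing the filter only through KO, and its second probe set gave -0.22. P4ha2, a subunit of collagen prolyl hydroxylase, read 55.3 and 45.3 (0.22), and Errfi1, an inhibitor of EGF receptor signalling, 186 and 158 (0.22), with 0.51 on its second probe set. Hmox1, the haem-degrading oxygenase, was lower at 48.0 and 57.9 (-0.21). Below the filter, Tgfb3 differed by 0.30, Slc16a3 by -0.29 and Igfbp3 by -0.35.

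The pyruvate dehydrogenase kinases, likewise picked after their values were seen, went both ways. Beside Pdk1 (0.29), Pdk3 read 229 in KO and 238 in WT (-0.054), and Pdk2 and Pdk4 were below the level filter at 8.40 against 3.33 and 7.10 against 9.16. Pdha1, the X-linked subunit of the enzyme they shut off, read 1021 and 1116 (-0.13), with -0.50 on its second probe set. Pkm, the last enzyme of glycolysis, read 1885 and 1998 (-0.083).

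Probe sets that carry a member's symbol beside others entered no comparison. Of the 3 with Gapdh, the brightest read 3225 in KO and 3869 in WT (-0.26), and the others differed by 0.18 and, at dim signals of 21.0 and 12.2, by 0.39. The probe set with Hk1 also carries symbols of ribosomal protein gene copies and read 3871 and 4105 (-0.084).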
